A study of Mus musculus with 3 samples.

Results

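The genes described here make up the core RNA interference machinery of the mouse cell: the 4 Argonautes Ago1, Ago2, Ago3 and Ago4, together with Dicer1, Drosha, Dgcr8, Tarbp2, Xpo5 and Tnrc6a. They were chosen by gene name, and every array probe annotated with one of the 10 names was taken. That gave 27 probes for the 10 genes, out of 24812 named genes on the array. No probe carried one of the older Argonaute names (Eif2c1 to Eif2c4).

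RNA was measured in CLDE cells, a single mouse line of dental epithelium that came from the cervical loop, where incisor epithelial stem cells reside. There were 3 groups, each with 1 array, all harvested 72 h after transfection: siKrt15 (an siRNA duplex against keratin 15), siNeg (non-targeting control siRNAs) and mock, whose transfection mix the labels do not describe further. The siRNAs were delivered with the lipid reagent Lipofectamine RNAiMAX, and all 3 groups are labelled as transfected. For the arrays titled siKrt15 and siNeg, the description and treatment field name the other siRNA, and groups here follow the titles. Krt15, the targeted gene, had a processed signal of 267 in siKrt15, against 1647 in siNeg and 2638 in mock, in arbitrary units, which goes with the titles. Since no group has a second array, no p-value could be given, and every difference below is between 2 arrays.

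Of the spots that were not controls, 67.3% in siKrt15, 69.2% in siNeg and 69.0% in mock were well above background, and none was saturated. All 8 epithelial markers were well above background on each array, with summed signals of 331249 in siKrt15, 327002 in siNeg and 323996 in mock. Of 8 dental epithelial markers, 3 were above background in siKrt15, 4 in siNeg and 4 in mock. Sox2 and Bmi1 were among them, whereas Shh, Ambn, Enam and Lgr5 were not above background on any array. Mesenchymal markers summed to 306 in siKrt15, 333 in siNeg and 342 in mock, and endothelial and blood markers to 2793, 2688 and 2924 in the same order of groups. Single mesenchymal markers went opposite ways: Dcn was −1.20 and Col1a1 0.98 on the log2 scale in siKrt15 against mock. The part of these markers in any difference below was not tested. Fewer cells of a type and less RNA per cell cannot be told apart in bulk RNA.

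The machinery works as a line. Drosha, an RNase III enzyme, and its partner Dgcr8 cut primary microRNA transcripts in the nucleus, and exportin 5 (Xpo5) carries the hairpins to the cytoplasm. There Dicer1, assisted by the double-stranded RNA-binding protein Tarbp2, cuts the hairpin to a short duplex, and an Argonaute takes up 1 strand. The loaded Argonaute recruits Tnrc6a (GW182), which brings the enzymes that shorten the mRNA tail. A synthetic siRNA enters at the Argonaute step, and of the mouse Argonautes Ago2 is the one known for strong slicing of a perfectly paired target. The machinery thus both serves the microRNAs of an epithelial cell and carries out the knockdown used in the experiment.

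Because each value rests on the stretch of mRNA that a probe binds, a probe sequence is shown for some of the genes. Each is 60 bases, printed 5′ to 3′ from the array annotation, with coordinates on mm9. The second Ago4 probe is shown because it was not above background on any array. Of the 5 Dicer1 probes, the 2 that were above mock in both siRNA arrays after scaling are shown. The other 3 were below mock in both. The remaining printed probes represent Ago3, Dgcr8, Xpo5 and Tnrc6a.
Ago3 (chr4:126032332-126032391): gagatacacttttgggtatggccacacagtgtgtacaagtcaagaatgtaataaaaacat
Ago4 (chr4:126193135-126193194): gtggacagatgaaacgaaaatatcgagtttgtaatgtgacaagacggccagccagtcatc
Dicer1 (chr12:105960373-105960432): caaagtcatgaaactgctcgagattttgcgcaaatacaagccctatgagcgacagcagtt
Dicer1 (chr12:105930664-105932735): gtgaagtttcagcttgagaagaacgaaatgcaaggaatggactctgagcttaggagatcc
Dgcr8 (chr16:18259666-18259725): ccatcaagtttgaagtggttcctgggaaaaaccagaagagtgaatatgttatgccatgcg
Xpo5 (chr17:46378755-46378814): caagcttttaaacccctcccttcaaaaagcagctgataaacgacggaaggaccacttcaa
Tnrc6a (chr7:130317766-130317825): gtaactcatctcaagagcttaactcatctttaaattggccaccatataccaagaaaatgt
Argonautes are paralogs. Across the array, 0 probes named for another gene shared a run of 20 bases with any of the 27. That search covered probe sequences only and not whole transcripts. It therefore cannot show whether an Argonaute probe also binds the mRNA of another Argonaute. The second Dicer1 probe printed spans 2072 bases of genome and therefore crosses an intron. Exon and UTR annotation on mm9 was not used here.

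Of the 27 probes, 26 were well above background on all 3 arrays and 1, the second Ago4 probe, on none. Each of the 10 genes thus had at least 1 measured probe in every group. The plot of signals by probe shows that the 3 arrays usually lay close together within a probe. Levels of different genes are not compared, since probes differ in how they bind.

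**Figure D1:**
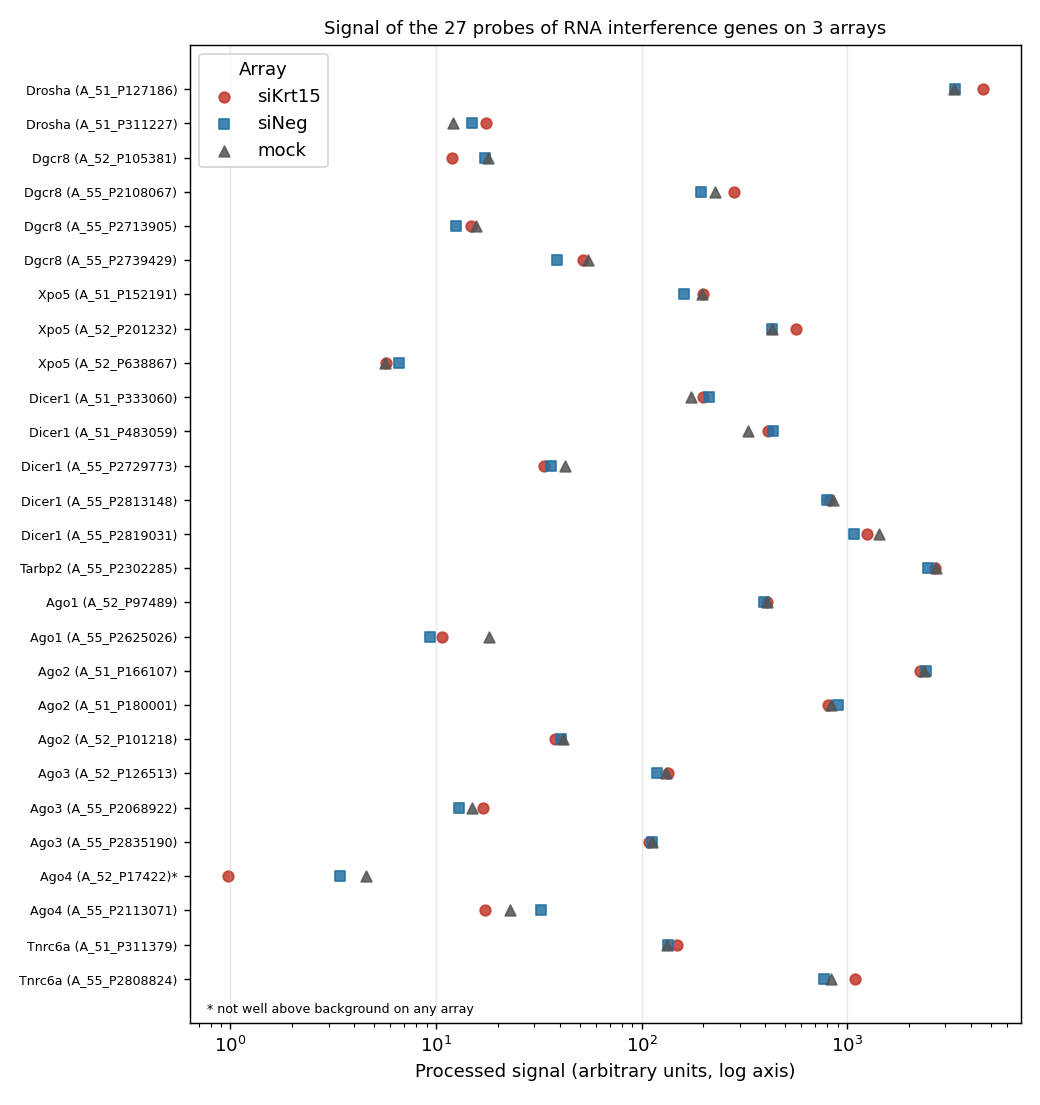
Processed signal (arbitrary units, log axis) of each of the 27 probes on the siKrt15, siNeg and mock arrays, 1 point per array. Among probes well above background, the widest gaps are at the dim probes of Ago4 (17.3, 32.6 and 22.8) and Ago1 (10.8, 9.32 and 18.2), and the asterisk marks the Ago4 probe that was never well above background.

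Differences were taken on a log2 scale after subtracting each array's 75th percentile, and averaged over a gene's measured probes. Values after ± are the error-model SD that the scanner software gives for 1 hybridisation per group, which leaves out any spread between cultures. For a gene it is the mean over its probes. It was at least 0.20 for every measured member probe, where replicate spots on an array had a median SD of 0.05. A difference within the error-model SD is therefore not shown to be absent. A gene was counted as changed at 2-fold or more. In siKrt15 against mock 0 of 10 genes passed, where 3.43% of 17130 genes did. In siNeg against mock 0 of 10 passed, where 0.402% of 17416 genes did. In siKrt15 against siNeg 1 of 10 passed, Ago4, where 3.70% of 17121 genes did. The members' counts are thus near the shares of all genes, and a list of 10 cannot show shares this small.

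Nuclear processing came first in the pathway. Drosha was the only member with all of its probes higher in siKrt15 and in siNeg than in mock. Its probe at chr15:12864871-12864930 had 4573 in siKrt15, 3345 in siNeg and 3297 in mock, with log2 differences after scaling of 0.29 in siKrt15 against mock and 0.10 in siNeg against mock. The order of the arrays was then siKrt15, siNeg and mock, and neighbours in it differed by less than the error-model SD. Its dim second probe had 17.4 in siKrt15, 15 in siNeg and 12.1 in mock. Drosha averaged a log2 difference of 0.32 ± 0.23 in siKrt15 against mock and 0.25 ± 0.23 in siNeg against mock, less than 2 error-model SDs in each. Differences at least as large were seen for 35.8% and 20.1% of all genes. Drosha in siKrt15 against siNeg differed by 0.08 ± 0.22, which is within that SD.

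Dgcr8, the double-stranded RNA-binding partner that recognises the hairpin, had 4 probes that did not go one way. At chr16:18254226-18254285 the arrays read 282 in siKrt15, 194 in siNeg and 228 in mock, with siKrt15 the highest. The probe at chr16:18259666-18259725, printed above, had 52.1 in siKrt15, 38.9 in siNeg and 55.2 in mock, with siNeg the low array. The remaining pair of Dgcr8 probes, dim and sharing 14 bases of genome, gave 12 and 14.8 in siKrt15, 17.2 and 12.5 in siNeg, and 17.9 and 15.6 in mock. The first of that pair had a log2 difference of −0.75 ± 0.25 in siKrt15 against mock, and its neighbour −0.26. Dgcr8 as a mean of 4 probes was −0.28 ± 0.22 in siKrt15 against mock and −0.19 ± 0.22 in siNeg against mock. With the brightest probe alone siKrt15 against mock gave 0.13, so the direction for Dgcr8 rests on which probes are used.

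Xpo5, the export receptor, had its brightest probe at chr17:46378755-46378814 at 562 in siKrt15, 434 in siNeg and 431 in mock. A second probe had 198, 162 and 197 in the same groups, and the third was close to background at 5.72, 6.57 and 5.62. After scaling, the first probe was highest in siKrt15, at 0.21 against mock, while the second was lower in both siRNA arrays than in mock, at −0.17 in siKrt15 and −0.20 in siNeg. The gene mean was −0.04 ± 0.29 in siKrt15 against mock, 0.07 ± 0.28 in siNeg against mock and −0.10 ± 0.28 in siKrt15 against siNeg, all within the error-model SD. Probes ranged from −0.17 to 0.21 in the first of these, on both sides of 0.

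Dicer1, the RNase III enzyme that makes the short duplex, was read by 5 probes that did not go one way. The probe at chr12:105960373-105960432 had 411 in siKrt15, 437 in siNeg and 330 in mock. Next, the intron-spanning probe had 199 in siKrt15, 213 in siNeg and 174 in mock. Both were higher in the siRNA arrays than in mock before scaling. Their log2 differences in siNeg against mock were 0.49 and 0.37. The probe at chr12:105964455-105964514, designed on a separate cDNA (AK035253), went the other way, with 1252 in siKrt15, 1085 in siNeg and 1436 in mock. Its log2 difference in siNeg against mock was −0.32, and that of the other probe on the same cDNA, with 33.6, 36.4 and 42.4, was −0.14. In siKrt15 against mock these probes gave −0.37 and −0.51, with 0.14 and 0.02 for the pair above. The third probe on the RefSeq transcript had 818 in siKrt15, 801 in siNeg and 859 in mock. Its log2 differences were −0.25 in siKrt15 against mock and −0.02 in siNeg against mock, nearer to a cDNA probe than to the RefSeq pair in each. Together, the 3 RefSeq probes averaged 0.41 above the 2 cDNA probes in siKrt15 against mock and 0.51 above them in siNeg against mock. In siKrt15 against siNeg that gap was −0.09, and all 5 probes were below 0, as were 60.6% of all genes. All probes share each array's scaling, and with spike-in scaling the Dicer1 mean there was 0.04. Dicer1 as a whole was −0.20 ± 0.21 in siKrt15 against mock, 0.08 ± 0.21 in siNeg against mock and −0.27 ± 0.21 in siKrt15 against siNeg. The grouping by transcript was made after the values were seen, and the probes do not divide cleanly by it.

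Among probes within 2-fold of the same signal, the siNeg to mock differences of 3 Dicer1 probes lay outside the central 95%. The probe with 0.49 was matched or exceeded by 0.321% of 5922 probes and the intron-spanning probe by 1.14% of 6481. The cDNA probe with −0.32 was matched or passed downward by 1.13% of 4956. Over all 26 measured member probes, 5 were outside that range in siNeg against mock, 0 in siKrt15 against mock and 1 in siKrt15 against siNeg. The other 2 in siNeg against mock were of Ago1 and Ago4.

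Tarbp2, the Dicer partner, had 1 probe, at chr15:102353974-102354033, with 2682 in siKrt15, 2472 in siNeg and 2724 in mock. Its log2 differences were −0.20 ± 0.20 in siKrt15 against mock, −0.06 ± 0.20 in siNeg against mock and −0.14 ± 0.20 in siKrt15 against siNeg. None exceeded the error-model SD.

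**Figure D2:**
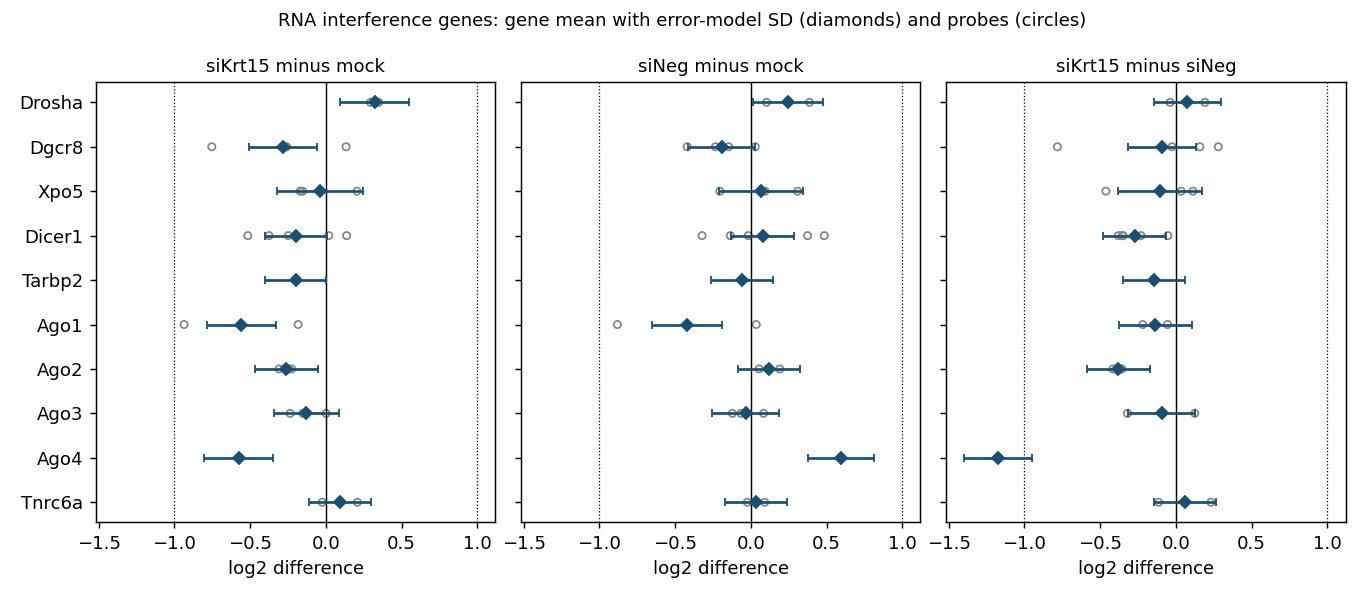
Log2 difference of each of the 10 genes in siKrt15 minus mock, siNeg minus mock and siKrt15 minus siNeg. Diamonds are means over a gene's measured probes with the error-model SD, circles are single probes and dotted lines mark 2-fold. Ago4 in siKrt15 minus siNeg, at −1.17, is the only diamond beyond a dotted line.

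Ago2, the slicer, had 3 probes along its transcript that went the same way in each comparison. Its brightest had 2270 in siKrt15, 2427 in siNeg and 2378 in mock. A second probe read 808, 901 and 836 in those groups, and the dimmest 37.9, 40.7 and 41.5. The siKrt15 signal was the lowest of the 3 arrays at every Ago2 probe. After scaling, the gene differed by −0.26 ± 0.21 in siKrt15 against mock, 0.12 ± 0.21 in siNeg against mock and −0.38 ± 0.21 in siKrt15 against siNeg. The last spanned −0.42 to −0.36 over the probes, and 27.9% of all genes differed by as much. All probes share each array's scaling, and with spike-in scaling Ago2 was −0.06 in siKrt15 against siNeg.

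Ago1 was read by a bright and a dim probe that disagreed. At the bright probe (chr4:126115585-126115644) signals were 408.0 in siKrt15, 396.3 in siNeg and 409.5 in mock, which lay together. The dim probe (chr4:126119904-126119963), designed on an Ensembl transcript, had 10.8 in siKrt15 and 9.32 in siNeg, against 18.2 in mock, so both siRNA arrays were low. Its log2 differences from mock were −0.94 ± 0.25 for siKrt15 and −0.88 ± 0.26 for siNeg. These pulled the gene mean to −0.56 ± 0.23 in siKrt15 against mock and −0.42 ± 0.23 in siNeg against mock, whereas the bright probe gave −0.18 and 0.04. Among probes of like signal, 0.753% of 10621 were as low in siNeg against mock and 7.15% of 9896 in siKrt15 against mock. Between the siRNA arrays the probes differed by −0.22 and −0.05, with a gene mean of −0.14 ± 0.24 in siKrt15 against siNeg.

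Ago3 had 134 in siKrt15, 119 in siNeg and 132 in mock at its probe farthest along the transcript, 108, 113 and 113 at the next, and 16.9, 12.9 and 14.9 at the probe printed above. No array was high or low at all 3. The gene differed by −0.13 ± 0.22 in siKrt15 against mock, −0.03 ± 0.22 in siNeg against mock and −0.09 ± 0.22 in siKrt15 against siNeg.

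Ago4 was the only member past 2-fold in any comparison. Its measured probe (chr4:126169537-126169596, minus strand) had 17.3 in siKrt15, 32.6 in siNeg and 22.8 in mock, so mock lay between the siRNA arrays. It was 2.25-fold lower in siKrt15 than in siNeg, a log2 difference of −1.17 ± 0.22. Against mock it was −0.57 ± 0.23 in siKrt15 and 0.60 ± 0.22 in siNeg, neither past 2-fold. The siNeg difference was past 1.5-fold, as for 3.28% of all genes. The measured Ago4 probe was dim. Among 9211 probes of like signal, the median in siKrt15 against siNeg was −0.19, 1.28% were as low and 2.68% were at least 2-fold lower. The call was lost with model-based (normexp) background correction (−0.45), with spike-in scaling (−0.85), with the signal trend removed (−0.98), and under a stricter signal filter, which left the probe out. The sign was the same under all 8 scalings. The second Ago4 probe had 0.97, 3.40 and 4.56 in siKrt15, siNeg and mock, not well above background, and gives no fold.

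Over the 113 measured genes of the pathway lists described below, those nearest Ago4 in their 2 differences from mock were Pld6, Hsp90aa1 and Mirg, at Euclidean distances of 0.45, 0.45 and 0.46. Pld6 had log2 differences of −0.62 in siKrt15 and 0.15 in siNeg, Hsp90aa1 −0.16 and 0.42, and Mirg −0.18 and 0.36. All 3 share the sign pattern of Ago4 with a smaller spread, over 3 arrays only. They were picked by distance on these same 2 differences, which share the mock array. Their common signs thus largely follow from the choice and show no link to Ago4.

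Tnrc6a, the scaffold that couples Argonautes to deadenylation, had 1091 in siKrt15, 775 in siNeg and 834 in mock at chr7:130337143-130337202. At the probe printed above it had 148 in siKrt15, 134 in siNeg and 133 in mock. Before scaling, the siKrt15 signal was the highest at both probes. After scaling the gene differed by 0.09 ± 0.20 in siKrt15 against mock, 0.03 ± 0.20 in siNeg against mock and 0.06 ± 0.20 in siKrt15 against siNeg.

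Placed among all genes, the machinery lay inside the distribution in siKrt15 against mock. There 8 of 10 members were below 0, with 58.1% of all genes, and their median was −0.20 against −0.06 for all genes. The central 95% of genes ran from −0.84 to 0.95, and 0 members lay outside it. In siNeg against mock the genes as a whole were more tightly placed, from −0.41 to 0.58, and Ago1 and Ago4 lay just beyond opposite ends. The median there was 0.05 for the members and 0.02 for all genes, with 6 of 10 above 0 and 55.5% of all genes. In siKrt15 against siNeg 8 of 10 were below 0, with 60.6% of all genes, and the medians were −0.12 and −0.08. These signs depend on the scaling. With spike-in scaling 2 of 10 were below 0 in siKrt15 against siNeg, 2 of 10 above 0 in siNeg against mock, and 6 of 10 below 0 in siKrt15 against mock. Quantile normalization put 5 of 10 below 0 in siKrt15 against siNeg, and removal of the signal trend 4 of 10. The comparisons share arrays, so these counts are not independent of each other.

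**Figure D3:**
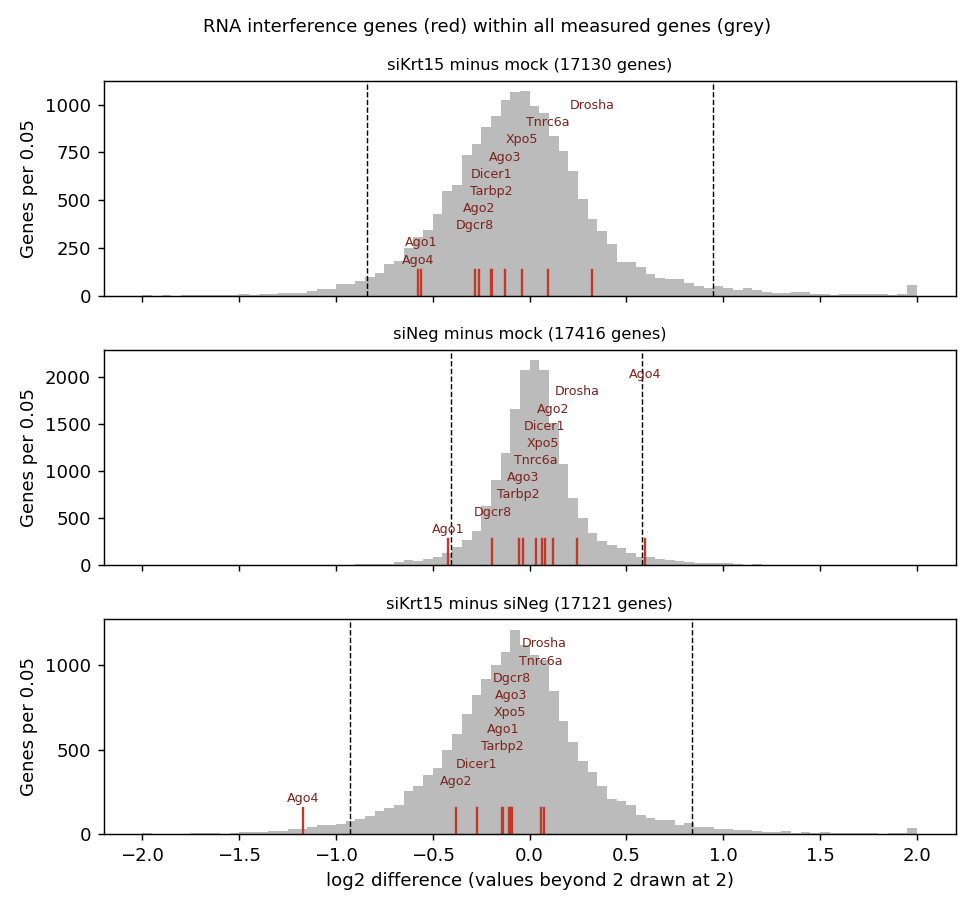
Number of genes (vertical axis, per 0.05 log2) by log2 difference in each comparison, grey, with the 10 RNA interference genes as labelled red marks and the central 95% of genes between dashed lines. Ago4 lies outside in siNeg minus mock and siKrt15 minus siNeg, and Ago1 in siNeg minus mock.

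The genes around the core were described from 8 lists by role. These lists were chosen with earlier results of these data known, so counts over them are not tests. In none of the lists did a gene pass 2-fold in siKrt15 against mock, siNeg against mock or siKrt15 against siNeg, where 3.43%, 0.402% and 3.70% of all genes did. Shares of all genes, here and below, were not matched to a list by signal or number of probes. Among 12 partners of the Microprocessor and of nuclear export, the median was 0.08 in siKrt15 against mock and 0.05 in siNeg against mock. The splicing factor Srsf3, which recognises a motif beside many hairpins, was 0.52 in siKrt15 and 0.04 in siNeg against mock. Hnrnpa2b1, a reader linked to processing of primary microRNAs, was 0.43 and 0.08 in the same comparisons. The helicase Ddx5, a Drosha cofactor, was −0.18 and −0.21, and the RNA methyltransferase Mettl3 0.17 and −0.04.

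Of 9 Dicer partners and double-stranded RNA-binding proteins, 3 were past 1.5-fold in siKrt15 against mock, 2 higher and 1 lower, where 13.5% of all genes passed in either direction. Their median was −0.05 in siKrt15 against mock and −0.03 in siNeg against mock. Eif2ak2 (PKR), the interferon-induced kinase that senses double-stranded RNA, had 473 in siKrt15, 263 in siNeg and 256 in mock at its 1 probe. Its siKrt15 signal stood apart from the others, with log2 differences of 0.71 ± 0.20 in siKrt15 against mock and 0.12 in siNeg against mock. The editing enzyme Adarb1 was 0.87 ± 0.24 and 0.40, and its 4 probes ranged from 0.30 to 1.36 in siKrt15 against mock. The helicase Dhx9 was −0.60 ± 0.21 and −0.29. Stau1, an mRNA transport protein, was −0.31 and −0.10, with probes on both sides of 0.

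The 13 chaperones that hold Argonautes open for loading had medians of −0.03 in siKrt15 against mock and 0.05 in siNeg against mock. In siKrt15 against siNeg 12 of 13 were below 0, with 60.6% of all genes. Their median of −0.04 was above that of all genes, −0.08, so the count does not place the chaperones lower than other genes. Such a count also depends on the scaling: with spike-in scaling the median of all genes there was 0.24. Hspa8 (Hsc70) was −0.54 in siKrt15 against mock and −0.41 in siKrt15 against siNeg, and Hsp90ab1 −0.23 and −0.28. The cochaperones Hspa4 and Ptges3 were −0.19 and −0.17 in siKrt15 against mock.

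Among 23 effectors and cofactors of the silencing complex the median was −0.08 in siKrt15 against mock and 0.00 in siNeg against mock. The helicase Mov10 was past 1.5-fold higher, at 0.78 ± 0.22 in siKrt15 and 0.25 in siNeg against mock. Fmr1, the fragile X RNA-binding protein, was past 1.5-fold lower, at −0.64 ± 0.21 and −0.14. Ddx20 was 0.55 and 0.25, and the ubiquitin ligase Trim32 0.53 and 0.36. Of 26 deadenylation and decapping genes, which act after Tnrc6a, none passed 1.5-fold in siKrt15 against mock, where 13.5% of all genes did. That share was not matched to the list by signal or number of probes. The median of the list was −0.09. The largest differences there were those of Eif4e2 at −0.40, the nuclease Xrn1 at −0.39 with 6 probes from −1.09 to −0.06, Pan2 at −0.41 and Cnot11 at 0.37.

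For microRNA tailing and turnover, 12 of 13 genes were measured, with a median of 0.03 in siKrt15 against mock and 0.05 in siNeg against mock. Tent2, a tail-adding enzyme, was 0.42 in siKrt15 against mock, Eri1 0.33, Dis3l2 −0.26 and Trim71 −0.26. The PIWI pathway, the germ line counterpart of RNA interference, was largely below background: 4 of its 12 genes were above background in siKrt15, 6 in siNeg and 6 in mock. Piwil2 was at −0.04 in siKrt15 against mock, Ddx4 at −0.23, Pld6 at −0.62 and Tdrkh at 0.32, the last with probes at −0.75 and 1.39.

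**Figure D4:**
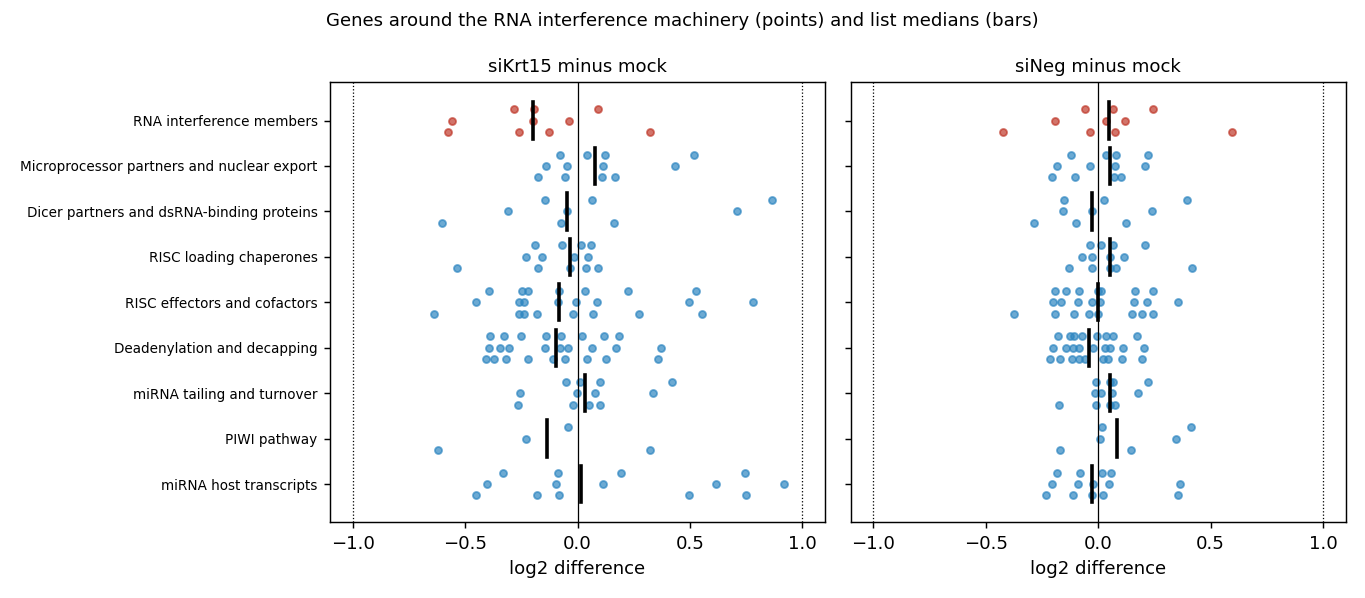
Log2 difference of every measured gene of the 10 RNA interference genes (red) and of 8 lists around them (blue), in siKrt15 minus mock and siNeg minus mock. Bars are list medians and dotted lines mark 2-fold, which no point passes.

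Transcripts that carry microRNAs were measured for 14 of 22 listed hosts, with a median of 0.02 in siKrt15 against mock and −0.03 in siNeg against mock. As the hosts were listed with earlier results of these data known, counts over them are a description and not a test. In siKrt15 against mock 4 were at least 1.5-fold higher and 0 lower, where 5.83% of all genes were higher and 13.5% passed in either direction. These were Egfl7 at 0.92 ± 0.20, H19 at 0.75 ± 0.29, Mcm7 at 0.75 ± 0.21 and Smc4 at 0.62 ± 0.20. In siNeg against mock the same genes were at 0.36, −0.11, −0.02 and 0.05. H19 was dim, with 51.4 in siKrt15, 16.9 in siNeg and 24.7 in mock at the brighter of its 2 probes. These probes gave 0.62 and 0.88 in siKrt15 against mock, but −0.46 and 0.24 in siNeg against mock. Mcm7 is a replication helicase subunit and Smc4 a condensin subunit, H19 is an imprinted noncoding RNA and Egfl7 a secreted factor of vessels. The arrays measure the host RNA and not the microRNA. The main microRNAs within these genes, by position in RefSeq on GRCm38.p6, are printed with the seed (bases 2 to 8) in capitals, as the sequences that the machinery would make from them.
miR-106b-5p (Mcm7): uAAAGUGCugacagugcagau
miR-93-5p (Mcm7): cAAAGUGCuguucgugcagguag
miR-25-3p (Mcm7): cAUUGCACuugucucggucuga
miR-15b-5p (Smc4): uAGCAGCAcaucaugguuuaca
miR-16-5p (Smc4): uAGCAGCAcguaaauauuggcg
miR-126a-3p (Egfl7): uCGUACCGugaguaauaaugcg
miR-675-5p (H19): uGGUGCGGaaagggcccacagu
miR-106b-5p and miR-93-5p share a seed, as do miR-15b-5p and miR-16-5p. Dgcr8 itself holds the hairpins of miR-1306 and miR-3618, and 1 of their mature products is printed, miR-1306-3p: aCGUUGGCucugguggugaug

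Which settings of the processing mattered is shown in the plot of differences under each alternative. Over the 8 scalings tried, the sign in siKrt15 against mock held for Ago1, Ago2, Ago4, Dicer1, Drosha, Dgcr8, Tarbp2 and Tnrc6a, but not for Ago3 or Xpo5. In siNeg against mock it held for Ago1, Ago4, Drosha, Dgcr8 and Tarbp2, and in siKrt15 against siNeg for Ago2, Ago4, Drosha and Tnrc6a. Spike-in scaling moved the median of all genes to 0.09 in siKrt15 against mock, −0.14 in siNeg against mock and 0.24 in siKrt15 against siNeg. Under it the members' medians were −0.05, −0.11 and 0.20 in those comparisons.

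**Figure D5:**
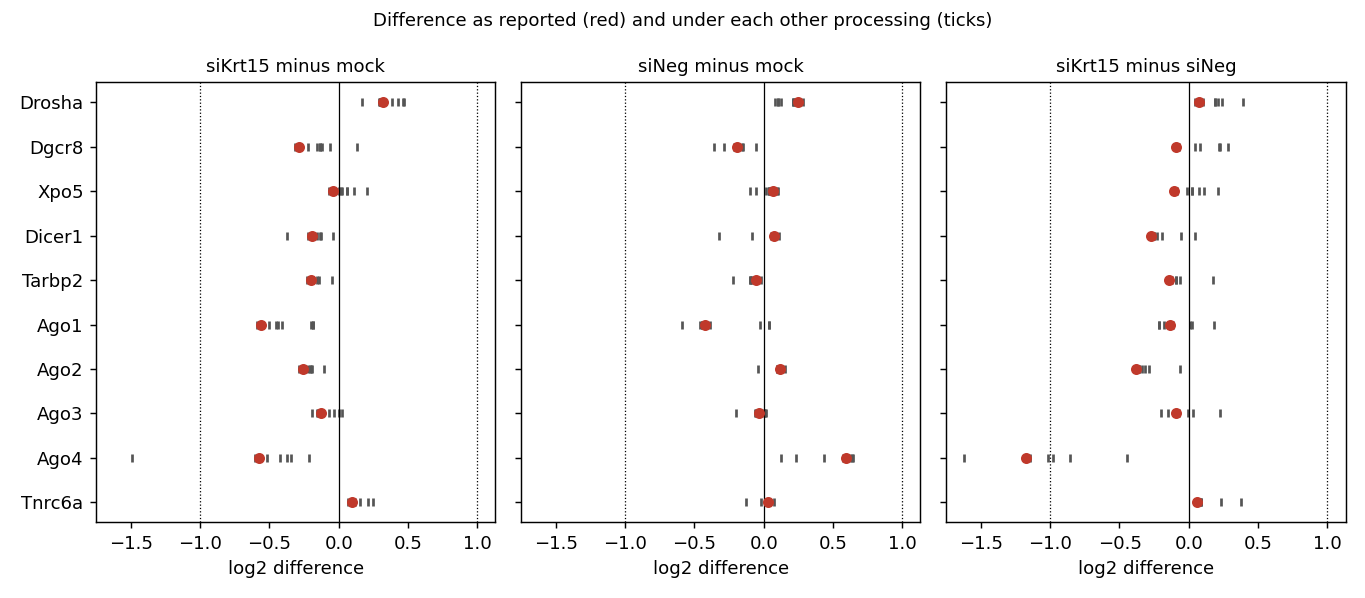
Log2 difference of each gene as reported (red) and under each other processing (grey ticks) in the 3 comparisons, with dotted lines at 2-fold. Ago4 in siKrt15 minus siNeg ranges from −1.62 to −0.45, across the 2-fold line. The −1.62 is the setting with no filter on dim probes, where the Ago4 probe below background enters. Over the 8 scalings Ago4 ranges from −1.18 to −0.45.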

How the data were processed

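RNA of the CLDE line, 1 sample per group, was labelled with Cy3 and hybridised to 1-colour Agilent arrays, all on 1 slide with 1 scan time. The deposited scanner files hold a background-subtracted processed signal per spot as an intensity on a linear scale, made with Feature Extraction 11.5.1.1 per the submitters' processing notes, protocol GE1_1105_Oct12 and build mm9 per the file headers. The authors' deposited value table is on a log2 scale. Set beside the scanner signals, 92.4% to 94.0% of its values lay within 0.01 of log2 signal less one constant per array, so genes were not centred. Its medians are −3.72 (siKrt15), −3.51 (siNeg) and −3.52 (mock).

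Here log2 signals were taken minus each array's 75th percentile, spots averaged per probe, and probes kept in a comparison when well above background and unsaturated on both arrays. Probe differences were averaged to a gene, with the mean of the error-model SDs as its error. Probes were named through RefSeq GRCm38.p6 tables: 32994 by accession, 10224 by symbol and 520 by synonym. Another 12867 kept the file's name and were left out of counts over genes. Positions on GRCm38.p6 were used only to place microRNAs within their host genes. Tools were Python 3.11.15, pandas 2.3.3 and limma 3.58.1 (normexp, offset 50). The procedure was tested on simulated data. That simulation took its noise from siNeg against mock and treated every probe as measured. It therefore does not cover dim probes or the wider spread of the siKrt15 comparisons.

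Named genes were all members, Krt15, up to 4 genes per list with the largest siKrt15 to mock difference, and the 3 genes nearest the member farthest from mock. The members and lists were chosen with earlier results of these data known. The comparison with probes of like signal and the Dicer1 grouping by transcript were added after seeing the data. With 1 array per group their number limits the precision. Some names and sequences among the markers and probes examined are not reported here.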

Additional observations from a re-analysis of the deposited data

How the results depend on the processing

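Of 298 differences of single members under 10 alternatives, 270 moved by less than the error-model SD and 28 by more, 10 of them with spike-in scaling. The only member difference called at 2-fold, Ago4 in siKrt15 against siNeg, did not change sign. Smaller differences did not always hold theirs. In siKrt15 against mock Xpo5 kept its sign in 5 of 11 settings and Tarbp2 in 11 of 11. Counts of all genes past 2-fold depended on the processing. In siKrt15 against mock they numbered 587 as reported, 126 with normexp, 2195 with no filter on dim probes, 346 with a stricter filter and 2315 at 1.5-fold. In siNeg against mock they numbered 70 as reported, 0 with normexp, 46 with spike-in scaling, 1249 with no filter, 4 with the stricter filter and 571 at 1.5-fold. In siKrt15 against siNeg they numbered 633 as reported, 105 with normexp, 2547 with no filter, 279 with the stricter filter and 2298 at 1.5-fold. Scaling also moved the share of higher genes among those called: from 58.6% to 83.6% in siKrt15 against mock (63.7% as reported), 54.3% to 92.6% in siNeg against mock (88.6%) and 45.2% to 86.8% in siKrt15 against siNeg (46.0%). Of the members, 1 passed 2-fold in siKrt15 against mock with no filter, Ago4 at −1.49, where its probe below background enters. In siNeg against mock 1 passed at 1.5-fold. In siKrt15 against siNeg 0 passed with normexp, spike-in scaling, the signal trend removed or the stricter filter. The members' median there was 0.20 with spike-in scaling, against −0.12 as reported. With the stricter filter Ago1, without its dim probe, was −0.18 in siKrt15 against mock and 0.04 in siNeg against mock. With the brightest probe per gene Dicer1 was −0.37 in siKrt15 against mock and −0.32 in siNeg against mock. Apart from changes made by the filters' own construction, the cause was not tested. No paired analysis was possible because each group has 1 array, and leaving out a replicate was not possible for the same reason. Probes near background, such as those of Ago4, limit what can be said of the genes they read.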
